A study of Zea mays with 24 samples.

Results

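The genes described here are 6 genes of sucrose movement and sucrose cleavage in maize (Zea mays), out of 50202 features measured. They were chosen by identifier and name, by a rule that used none of their values although earlier results of these data were known: the sucrose transporter gene sut1 (Zm00001d027854), the sucrose exporter genes sweet13a (Zm00001d023677), sweet13b (Zm00001d023673) and sweet13c (Zm00001d041067), and the sucrose synthase genes sh1 (Zm00001d045042) and sus1 (Zm00001d047253). The deposited files carry the identifiers alone, so each name rests on that choice. Root and young shoot RNA was sequenced from seedlings of the cultivars SS and ST, whose abbreviations the labels do not expand. The seedlings were given either water or a salinity solution of 100 mM at the stage with 3 leaves, and the labels do not state how long the treatment lasted. Of each cultivar, tissue and treatment there were 3 libraries, 24 in 8 groups, which the series calls biological replicates without saying whether plants were pooled. No tissue marker could be matched to a feature by name, so the tissue labels were not checked against markers.

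Leaves export the sugar made in photosynthesis as sucrose, and roots and growing organs import it. In maize leaves SWEET13 proteins let sucrose pass down its gradient out of cells next to the veins, and SUT1, which moves sucrose together with protons, takes it up from the wall space into the phloem. In receiving tissues sucrose synthase splits sucrose with UDP into fructose and UDP-glucose, a precursor of cell walls and starch. The gene sh1 (shrunken1) is best known from the endosperm of the kernel, and sus1 encodes a second form of the same enzyme.

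Levels are given as FPKM (fragments per kilobase of a feature's length and scaled by the size of the library) as the authors deposited them. The scale corrects for length, so levels can be compared between genes. Library totals, recovered from the values as whole reads, ran from 19747198 to 28825226. The 6 features had recovered lengths of 1322 (sweet13c) to 2838 bases (sus1). All 6 reached 1 FPKM in at least 23 of 24 libraries and were tested in every comparison. Reads per library ran from 778 to 65503 for sus1, from 3214 to 21234 for sh1, from 1677 to 18464 for sut1, from 983 to 9438 for sweet13a and from 192 to 1186 for sweet13b. The thinnest data were those of sweet13c, with 28 to 2320 reads, the lowest of them in ST roots under water. Replicates lay close together: in 42 of the 48 combinations of gene and group the coefficient of variation was under 10%, with a median of 3.23% and a highest value of 25% for sweet13c in ST roots under water.

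**Figure D1:**
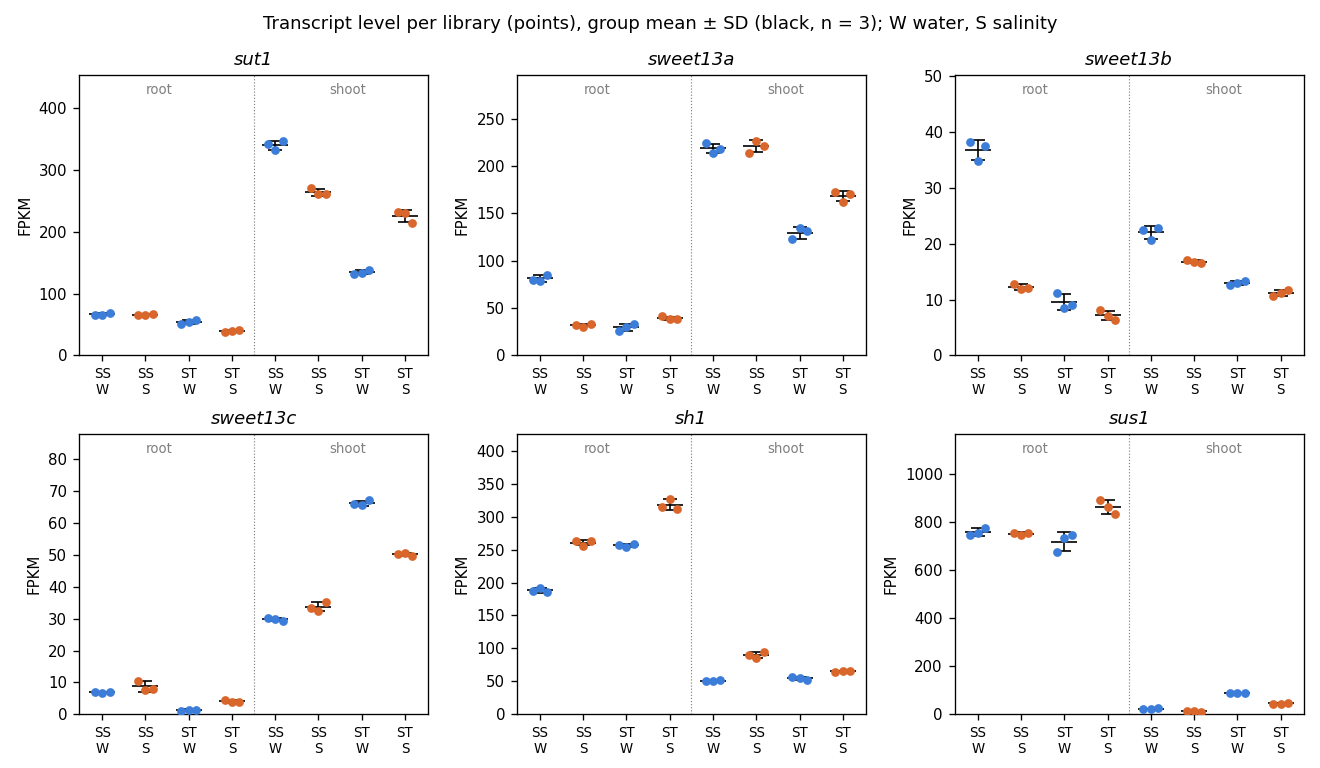
Level of each gene in FPKM (vertical axes, each from 0) in the 24 libraries, as points by group, blue for water and orange for salinity; black bars are the group mean ± SD of 3 libraries. The libraries of sut1, sweet13a and sweet13c are highest in shoots, those of sh1 and sus1 in roots, and sweet13b peaks in SS roots under water at 36.8 FPKM.

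Tissue took most of the variation of 5 of the 6 genes, a share that was not computed for the other features. As a share of a gene's variance of log2(FPKM + 1) over the 24 libraries, tissue took 91.8% for sh1, 90.1% for sus1, 86% for sut1, 83.6% for sweet13c and 83.5% for sweet13a. The exception was sweet13b, for which cultivar took 52.9%, treatment 21.9% and tissue 1.76%. Differences between replicates took 1.46% for sweet13b and under that for each of the others. These shares are of the values as deposited. Median-of-ratios scaling moved the shoot-minus-root log2 difference of sweet13b under water from -0.72 to -0.24 in SS and from 0.40 to 1.02 in ST. Under salinity the difference moved from 0.43 to 0.79 in SS and from 0.58 to 1.22 in ST. The shares after that scaling were not computed.

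The levels of sus1 in roots placed it among the most abundant transcripts there. In SS roots under water it stood at 745, 756 and 777 FPKM, and its mean ranked 79th of the 33865 features with a value above 0 in that group. In ST roots under salinity it stood at 890.4, 865 and 835 FPKM and ranked 48th of 35597. The same gene stood at 21.1, 20.4 and 24 FPKM in SS shoots under water, where it ranked 5674th of 33021. No shoot library of either cultivar reached a root library.

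In both cultivars and under both treatments the loading gene sut1 and the exporter genes sweet13a and sweet13c were higher in shoots, and the sucrose cleavage genes sh1 and sus1 were higher in roots. The exporter gene sweet13b was higher in roots in SS under water and higher in shoots in the other comparisons. Tests were made with limma on log2(FPKM + 1) with Benjamini-Hochberg adjustment over all features tested, and fold changes here and below are on that scale, which understates the changes of low genes. Shoots against roots under water, all 6 genes were called at an adjusted p of 0.05 in SS, where 82.2% of all features were called, and all 6 in ST, where 85.1% were. Under salinity all 6 were again called in each, against 80% and 84.8% of all features. With shares that high, a call by itself says little, so sizes are given: the median absolute log2 difference of the 6 genes was 1.92 in SS and 2.16 in ST under water, beside 0.78 and 0.84 over all features tested. Such medians, here and below, were not matched for level, and low features among all those tested have understated changes.

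The phloem loading gene sut1 was 5.04-fold higher in SS shoots than in SS roots under water (log2 fold change 2.33 with SE 0.04, limma adjusted p = 4.97e-22) and 2.46-fold higher in ST shoots than in ST roots (1.30 with SE 0.04, limma adjusted p = 1.53e-17). Of the exporter genes, sweet13a was 2.67-fold higher in shoots of SS and 4.29-fold higher in shoots of ST. The gene sweet13c went from 1.19 ± 0.298 FPKM in ST roots to 66.3 ± 0.815 FPKM in ST shoots (SD, n = 3 each), a log2 difference of 4.95 (SE 0.09, limma adjusted p = 6.07e-22), and from 6.88 ± 0.142 to 29.8 ± 0.464 FPKM in SS. Only sweet13b broke the pattern of its family under water, at 36.8 ± 1.77 FPKM in SS roots and 22 ± 1.13 FPKM in SS shoots (log2 fold change -0.72 with SE 0.08, limma adjusted p = 1.54e-08). In the other 3 tissue comparisons sweet13b was higher in shoots, by 0.40 to 0.58 on the log2 scale.

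The sucrose synthase gene sus1 stood at 0.03 of its root level in SS shoots under water (log2 fold change -5.06 with SE 0.05, limma adjusted p = 3.42e-26) and at 0.124 of it in ST shoots (-3.01 with SE 0.05, limma adjusted p = 1.47e-22). The gap was narrower for sh1, at -1.87 in SS and -2.21 in ST on the log2 scale. Under salinity the tissue difference of sus1 was -5.91 in SS and -4.24 in ST. In these bulk tissues fewer cells of a type and less RNA per cell cannot be told apart. The libraries' scaling matters for tissue comparisons: the median log2 difference of all features was -0.38 in SS and -0.52 in ST under water as deposited, and median-of-ratios scaling brought both within 0.01 of 0. Every tissue difference of the 6 genes kept its direction and call after that scaling. In proportion to the deposited value, the size changed most for sweet13b, to -0.24 and 0.79 in SS and to 1.02 and 1.22 in ST under water and salinity. Next came sut1 in ST under water, at 1.97. Smaller proportional changes of the other tissue differences are not listed.

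**Figure D2:**
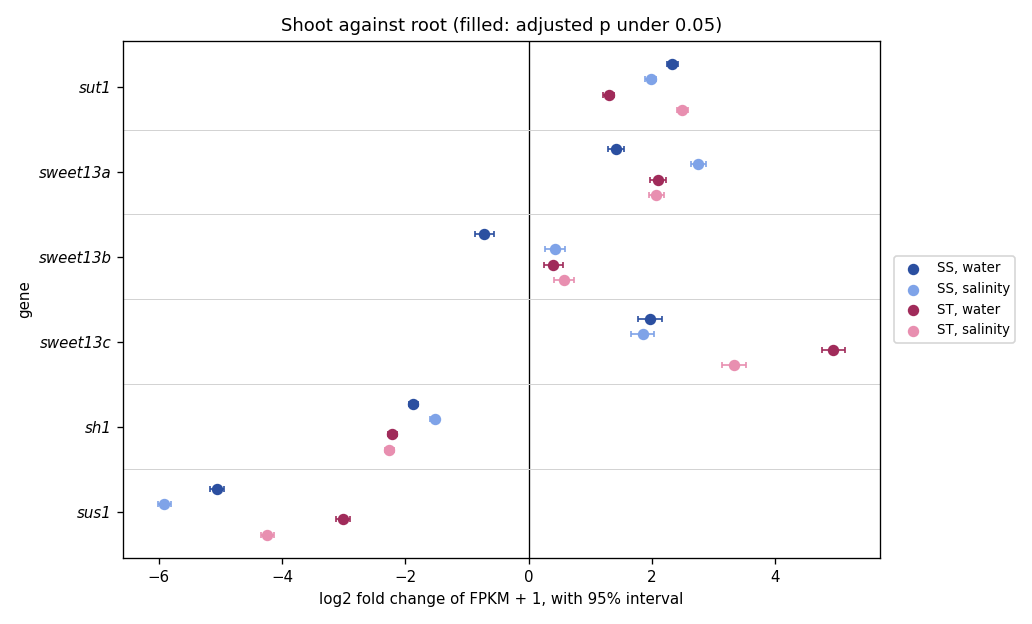
Difference between shoots and roots of the same cultivar and treatment as log2 fold change of FPKM + 1 (horizontal axis, positive where shoots were higher) for each gene, with 95% intervals; filled points passed an adjusted p of 0.05. Points of sut1, sweet13a and sweet13c lie right of 0 and those of sh1 and sus1 left of it in all 4 comparisons, with sus1 in SS under salinity farthest left at -5.91.

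Salinity was compared with water in each cultivar and tissue. In SS roots 3 of the 6 genes passed the test (38.7% of all features did), in ST roots 6 of 6 (45.8%), in SS shoots 5 of 6 (56.6%) and in ST shoots 6 of 6 (41.7%). The median absolute log2 change of the 6 genes was 0.38, 0.39, 0.37 and 0.38 in that order, beside 0.16, 0.19, 0.23 and 0.16 over all features tested. The directions were mixed in every tissue. Only sh1 rose in all 4 comparisons and only sweet13b fell in all 4.

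The exporter genes gave the largest salinity responses in roots, and the cultivars differed. In SS roots sweet13a stood at 79.9, 79 and 85.4 FPKM under water and at 32.1, 30.5 and 32.9 FPKM under salinity. The libraries of the 2 treatments were far apart, and the gene fell to 0.398 of its level (log2 fold change -1.33 with SE 0.07, limma adjusted p = 3.54e-08). In ST roots the same gene stood at 25.9, 29.9 and 32.8 FPKM under water and at 41.3, 38.1 and 38.1 FPKM under salinity. All 3 salinity libraries lay above the water libraries, and sweet13a rose there (0.40 with SE 0.07, limma adjusted p = 0.000622). The responses of all 6 genes in roots differed between the cultivars by the test of the difference, as did those of 41.7% of all features. For sweet13a the response of ST minus that of SS was 1.73 on the log2 scale (with SE 0.10, limma adjusted p = 9.25e-08).

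In SS roots sweet13b stood at 38.2, 34.8 and 37.5 FPKM under water and fell to 12.8, 11.8 and 12 FPKM under salinity (log2 fold change -1.52 with SE 0.09, limma adjusted p = 9.99e-08). In ST roots it stood at 11.2, 8.53 and 9.08 FPKM under water and 8.11, 7.01 and 6.4 FPKM under salinity, a smaller fall (-0.37 with SE 0.09, limma adjusted p = 0.00562) without overlap of the libraries. The fall in SS exceeded that in ST by 1.14 (SE 0.13, limma adjusted p = 2.59e-05). With sweet13a and sweet13b both lower, the summed level of the 3 exporter genes in SS roots went from 125 ± 4.67 to 52.8 ± 2.7 FPKM (SD, n = 3 each). In ST roots the sum went from 40.3 ± 2.66 to 50.4 ± 3.1 FPKM. The sums of the 2 cultivars were far apart under water, and under salinity their libraries overlapped, from 49.99 to 55.4 FPKM in SS and from 48.5 to 54.0 FPKM in ST. Differences of these sums were not tested.

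The gene sweet13c rose in ST roots, as sweet13a did and unlike sweet13b. It stood at 0.853, 1.41 and 1.31 FPKM under water, on 28 to 50 reads, and at 4.55, 3.7 and 3.95 FPKM under salinity, on 101 to 156 reads. This was a rise of 1.22 on the log2 scale (with SE 0.12, limma adjusted p = 4.98e-06) from the lowest level of any group. In SS roots the levels were 6.86, 6.76 and 7.04 FPKM under water and 10.6, 7.62 and 7.94 FPKM under salinity, and the difference did not pass (0.29, 95% interval 0.02 to 0.55, limma adjusted p = 0.0819). The response of sweet13c was higher in ST by 0.93 (SE 0.17, limma adjusted p = 0.001), or by 1.39 with a pseudocount of 0.1 and 1.48 with voom on recovered reads.

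The response in shoots differed from that in roots for some of the exporter genes. Shoots minus roots, it was 1.34 for sweet13a and 1.15 for sweet13b in SS and -1.61 for sweet13c in ST (limma adjusted p = 8.89e-11, 2.89e-08 and 2.69e-09). Of the 6 genes, 5 passed this test in SS, where 41.2% of all features did, and 3 in ST, where 43.4% did. The level of sweet13a in SS shoots was 224, 214 and 218 FPKM under water and 214, 227 and 222 FPKM under salinity, with overlapping libraries and no call (log2 fold change 0.01, 95% interval -0.07 to 0.10, limma adjusted p = 0.812). In ST shoots it rose from 129 ± 6.17 to 168 ± 5.39 FPKM (SD, n = 3 each; 0.38 with SE 0.04, limma adjusted p = 6.87e-06). In shoots sweet13b fell by 0.37 in SS and fell by 0.19 in ST on the log2 scale (limma adjusted p = 2.69e-05 and 0.00607). In ST shoots sweet13c fell from 65.9, 65.6 and 67.2 FPKM to 50.4, 50.5 and 49.6 FPKM (log2 fold change -0.39 with SE 0.04, limma adjusted p = 1.81e-06), the opposite of its direction in ST roots. In SS shoots it went from 29.8 ± 0.464 to 33.7 ± 1.48 FPKM, a call (0.17, limma adjusted p = 0.00157) that ended with median-of-ratios scaling (0.08, limma adjusted p = 0.0531; over all 14 alternatives adjusted p of 0.00118 to 0.0531).

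**Figure D3:**
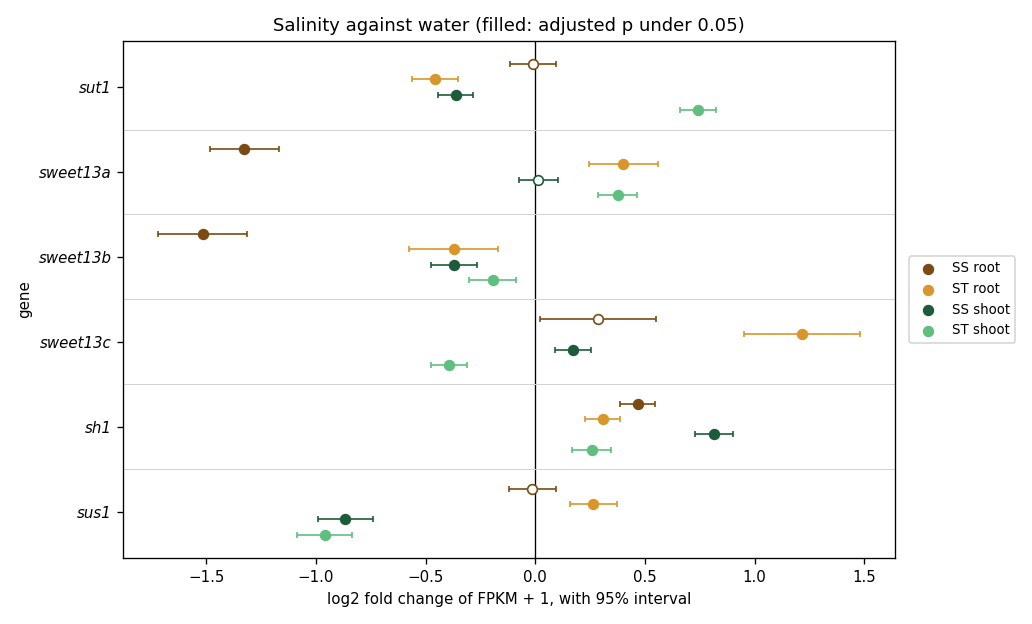
Salinity against water in each cultivar and tissue as log2 fold change of FPKM + 1 (horizontal axis, positive where salinity was higher) for each gene, with 95% intervals; filled points passed an adjusted p of 0.05. The points of sh1 all lie right of 0 and those of sweet13b all left of it, while sweet13a in SS roots lies at -1.33 and in ST roots at 0.40.

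The response of sut1 ran in opposite directions in the shoots of the cultivars. In SS shoots it stood at 342, 331 and 346 FPKM under water and at 271, 260.2 and 261 FPKM under salinity, and all 3 salinity libraries were lower (log2 fold change -0.36 with SE 0.04, limma adjusted p = 2.78e-06). In ST shoots it stood at 132, 134 and 138 FPKM under water and at 232, 230.3 and 214 FPKM under salinity, and all 3 were higher (0.74 with SE 0.04, limma adjusted p = 5.08e-09). In shoots 5 of the 6 genes passed the test of this difference, as did 51.3% of all features. The count was 4 with a pseudocount of 0.1, with voom, with the replicate block and in 10 of 12 refits without 1 library (all but those without replicate 2 of SS under water or replicate 1 of ST under salinity), each of which ended the call of sweet13b (0.18, limma adjusted p = 0.0489 as deposited, and 0.00593 to 0.111 over all 19 alternatives). For sut1 the responses differed by 1.10 on the log2 scale (with SE 0.05, limma adjusted p = 4.05e-09). Under water sut1 in ST shoots stood at 0.398 of its level in SS shoots, and under salinity at 0.855 of it.

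In roots sut1 was lower under salinity in ST and showed no called change in SS. SS roots stood at 65.7, 65.5 and 68.7 FPKM under water and 64.9, 65.9 and 67.3 FPKM under salinity, which overlapped and were not called (log2 fold change -0.01, 95% interval -0.12 to 0.09, limma adjusted p = 0.899). ST roots stood at 51.1, 53.9 and 57.1 FPKM under water and fell to 37.2, 39.4 and 40.7 FPKM under salinity (-0.46 with SE 0.05, limma adjusted p = 7.91e-06). The response in ST minus that in SS was -0.44 (SE 0.07, limma adjusted p = 0.000247). In ST the response of sut1 in shoots exceeded that in roots by 1.20 (SE 0.06, limma adjusted p = 1.91e-12), and in SS the same difference was -0.35 (limma adjusted p = 8.55e-05). Quantile normalization reduced this SS value to -0.20 (limma adjusted p = 0.0125).

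The sucrose synthase gene sh1 rose under salinity in both tissues of both cultivars. In SS roots it went from 187, 192 and 185 FPKM to 263, 256 and 263 FPKM (log2 fold change 0.47 with SE 0.04, limma adjusted p = 8.74e-07). In ST roots it went from 257, 253 and 258 FPKM to 315, 327 and 311 FPKM (0.31 with SE 0.04, limma adjusted p = 2.14e-05). In neither cultivar did the root libraries of the treatments overlap, and SS roots under salinity overlapped with ST roots under water.

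The rise of sh1 was greatest in SS shoots, from 49.8, 50.7 and 51.2 FPKM to 89.7, 86.1 and 93.8 FPKM (log2 fold change 0.82 with SE 0.04, limma adjusted p = 2.14e-09). In ST shoots it went from 56.5, 55 and 52.2 FPKM to 64.9, 65.2 and 66 FPKM (0.26 with SE 0.04, limma adjusted p = 0.000167). The ST response minus that of SS was -0.56 in shoots (SE 0.06, limma adjusted p = 3.57e-06) and -0.16 in roots (SE 0.05, limma adjusted p = 0.0266). The root difference was lost in 6 of the 12 refits that left out 1 library, those without root replicate 1 or 3 of SS under water, of SS under salinity or of ST under salinity, with an adjusted p of up to 0.0657 (0.000854 to 0.0657 over all 19 alternatives).

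The second sucrose synthase gene, sus1, fell in the shoots of both cultivars. In SS shoots it went from 21.1, 20.4 and 24 FPKM to 11.5, 12.3 and 10.8 FPKM (log2 fold change -0.87 with SE 0.06, limma adjusted p = 4.57e-08). In ST shoots it went from 89.8, 87.4 and 87.1 FPKM to 44.3, 44.2 and 45.8 FPKM (-0.96 with SE 0.06, limma adjusted p = 2.86e-08). Both falls were clear of the replicate spread, and their difference was not called (-0.10, 95% interval -0.27 to 0.08, limma adjusted p = 0.357). The 2 enzyme genes moved in opposite directions in shoots.

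In roots sus1 stayed high under salinity. In SS roots it stood at 760 ± 16.1 FPKM under water and 753 ± 6.52 FPKM under salinity (SD, n = 3 each), with overlapping libraries and no call as deposited (log2 fold change -0.01, 95% interval -0.12 to 0.09, limma adjusted p = 0.891). Quantile normalization gave 0.24 there with a call (limma adjusted p = 0.00512; 0.00512 to 1 over all 14 alternatives). In ST roots it went from 675, 733 and 748 FPKM to 890.4, 865 and 835 FPKM (0.26 with SE 0.05, limma adjusted p = 0.000811). The ST response exceeded that of SS by 0.28 (SE 0.07, limma adjusted p = 0.007), a call that quantile normalization ended (0.01, limma adjusted p = 0.922; 0.000733 to 0.922 over all 19 alternatives). The response in shoots minus that in roots was -0.85 in SS and -1.23 in ST (limma adjusted p = 7.32e-09 and 2.33e-11).

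Shares within a library do not change when a library's values are all multiplied by 1 factor, though quantile normalization can change them. As a share of the summed FPKM of sh1 and sus1, sus1 made up 80.2% ± 0.511 in SS roots under water and 74.3% ± 0.128 under salinity (SD, n = 3 each). In ST roots it made up 73.7% ± 1.11 and 73.1% ± 0.674, with overlapping libraries. In shoots its share fell from 30.1% ± 1.61 to 11.4% ± 1.12 in SS and from 61.8% ± 0.669 to 40.7% ± 0.281 in ST. The log2 ratio of sh1 to sus1, with 1 FPKM added to each, was 1.68 higher under salinity in SS shoots, 1.22 higher in ST shoots and 0.48 higher in SS roots. In each of these 3 comparisons the libraries did not overlap and the two-sided exact permutation test gave p = 0.1, the smallest that 3 against 3 libraries allow, so none can pass 0.05. In ST roots the ratio was 0.04 higher (exact permutation p = 0.4).

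The summed level of both synthase genes moved differently in the shoots of the cultivars, which was not tested. In SS shoots it went from 72.4 ± 2.44 to 101 ± 3.1 FPKM under salinity, with sh1 up and sus1 down. In ST shoots it went from 143 ± 3.48 to 110 ± 1.5 FPKM (SD, n = 3 each), with the same directions. In roots it ran from 948 ± 15.1 FPKM in SS under water to 1181 ± 31.5 FPKM in ST under salinity.

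Among the exporter genes sweet13a made up the largest share in all 8 groups, from 60.4% ± 2.26 of the summed FPKM in SS roots under salinity to 81.4% ± 0.656 in SS shoots under salinity. The second place changed with tissue. In roots it was held by sweet13b, at 14.2% to 29.4%, and in shoots by sweet13c, at 11% to 31.8%. Under salinity the share of sweet13c in roots went from 5.5% ± 0.0948 to 16.4% ± 2.29 in SS and from 2.94% ± 0.654 to 8.06% ± 0.427 in ST (SD, n = 3 each). The log2 ratio of sweet13a to sweet13b was higher under salinity in all 4 combinations of cultivar and tissue, by 0.19 to 0.77, without overlap (exact permutation p = 0.1 in each). That of sweet13a to sweet13c went both ways, also without overlap (exact permutation p = 0.1 in each). It changed by -1.62 in SS roots, -0.81 in ST roots, -0.16 in SS shoots and 0.77 in ST shoots. The ratio of sut1 to the summed exporters rose by 1.22 in SS roots and 0.60 in ST shoots on the log2 scale and dropped by 0.77 in ST roots and 0.37 in SS shoots, again without overlap. The 3 sweet13 genes are known as close copies of one another, and the labels do not say how a read matching more than 1 of them was counted, so the split between them is uncertain.

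**Figure D4:**
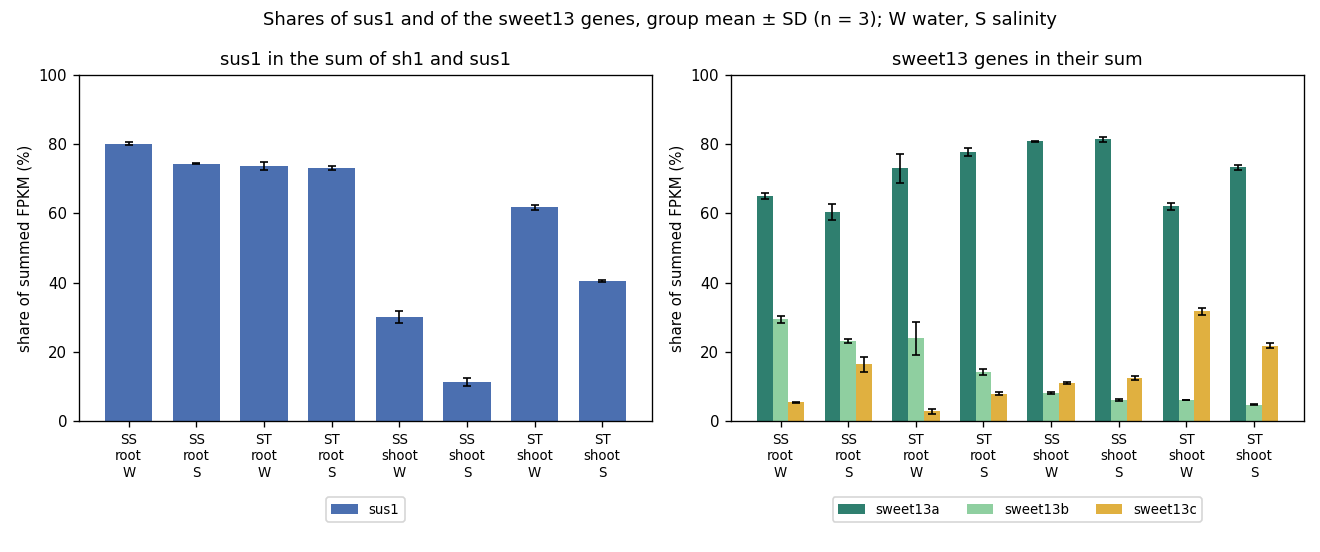
Share (percent of summed FPKM, vertical axes from 0 to 100) of sus1 in the sum of sh1 and sus1 (left) and of each sweet13 gene in their sum (right), in the 8 groups; bars are means of 3 libraries and black lines ± SD. The share of sus1 drops under salinity in shoots, to 11.4% in SS, and sweet13c takes 31.8% of the exporter sum in ST shoots under water.

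The cultivars were also compared directly within each tissue and treatment. The processing notes name a single reference build, and how well it matches each cultivar was not tested. In roots under water 5 of the 6 genes were called (70.7% of all features were) and under salinity 6 (73.3%). In shoots 6 were called under each treatment, where 80.1% of all features were called under water and 80.1% under salinity. The median absolute log2 difference of the 6 genes in roots was 0.94 under water, beside 0.37 over all features, and 0.49 under salinity, beside 0.40. In shoots it was 0.94 beside 0.51 under water and 0.50 beside 0.53 under salinity.

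In roots under water all 3 exporter genes were lower in ST, with log2 differences of -1.44 for sweet13a, -1.84 for sweet13b and -1.86 for sweet13c (SE 0.07 to 0.12, limma adjusted p from 1.35e-09 to 1.99e-08, n = 3 libraries in each group). Under salinity the differences were -0.70 for sweet13b and -0.93 for sweet13c, and sweet13a was higher in ST by 0.29 (limma adjusted p = 0.00289). The transporter gene sut1 was lower in ST roots under both treatments, at -0.30 under water and -0.74 under salinity. The gene sh1 was higher in ST roots, by 0.45 and 0.29. For sus1 the root levels overlapped under water (log2 fold change -0.08, 95% interval -0.19 to 0.03, limma adjusted p = 0.163). Under water median-of-ratios scaling gave -0.14 (limma adjusted p = 0.0355) and quantile normalization gave 0.15 (limma adjusted p = 0.0359), with opposite signs and both called. Under salinity the difference of 0.20 (limma adjusted p = 0.00305) lost its call with median-of-ratios scaling (0.11, limma adjusted p = 0.0835).

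In shoots sus1 and sweet13c were higher in ST, and sut1, sweet13a and sweet13b were lower. The difference of sus1 was 1.97 under water (SE 0.06, limma adjusted p = 1.59e-12) and 1.87 under salinity (SE 0.06, limma adjusted p = 2.66e-12). The difference of sweet13c was 1.13 under water and 0.56 under salinity. The gap of sut1 was -1.33 under water (SE 0.04, limma adjusted p = 9.4e-13) and -0.23 under salinity (SE 0.04, limma adjusted p = 8.3e-05). The latter call was lost with median-of-ratios scaling (0.0045, limma adjusted p = 0.93; 5.11e-06 to 0.93 over all 14 alternatives). For these shoots under salinity the median log2 difference of all features was -0.19 as deposited and 0.01 after that scaling, which also reduced sweet13a from -0.39 to -0.16, sweet13b from -0.55 to -0.33 and sh1 from -0.45 to -0.22, with their calls kept. Under water sh1 was higher in ST shoots by 0.11 (limma adjusted p = 0.0254), a call lost without replicate 1 of SS or replicate 1 or 2 of ST (adjusted p of 0.0734, 0.11 and 0.0702), while median-of-ratios scaling raised the value to 0.21 and quantile normalization to 0.28.

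**Figure D5:**
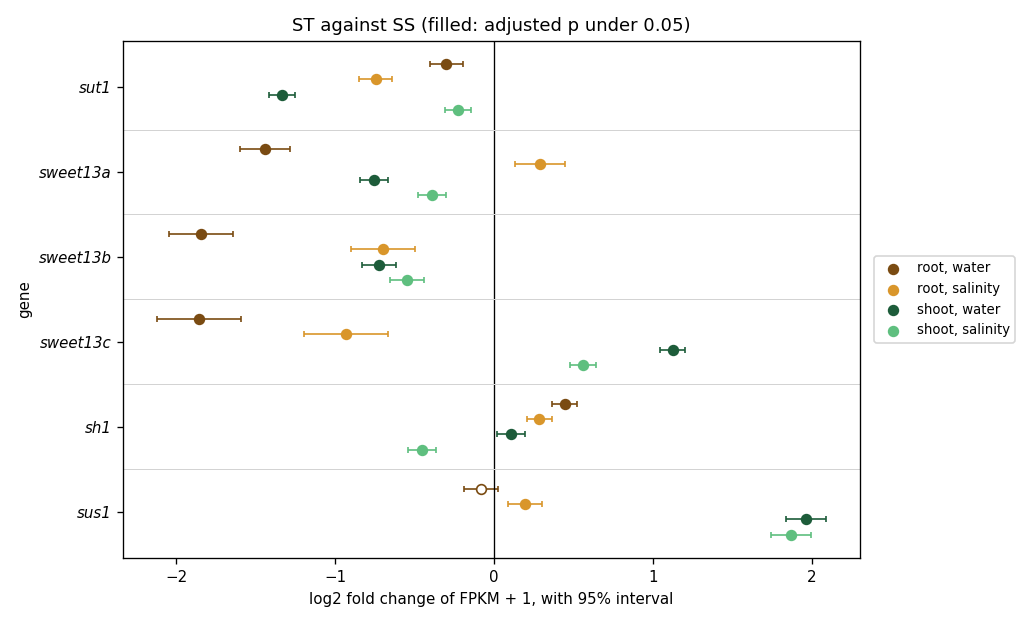
ST against SS in each tissue and treatment as log2 fold change of FPKM + 1 (horizontal axis, positive where ST was higher) for each gene, with 95% intervals; filled points passed an adjusted p of 0.05. The 3 exporter genes in roots under water lie farthest left, between -1.44 and -1.86, and sus1 in shoots lies farthest right at 1.97 and 1.87.

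The order of the 8 group means summarised each gene. How often neighbouring groups overlap was not computed for the other features, so the overlaps below describe these genes without a background. For sut1 it ran from SS shoots under water (339.7 FPKM) through SS shoots under salinity, ST shoots under salinity and ST shoots under water to the roots, and the only neighbours whose libraries overlapped were the SS roots under water and under salinity. For sweet13a the neighbours that overlapped were the SS shoots under both treatments, and SS roots under salinity with ST roots under water. For sweet13b the order began with SS roots under water and overlapped between ST shoots under water and SS roots under salinity, and between ST shoots under salinity and ST roots under water. For sweet13c no neighbours overlapped, from 66.3 FPKM in ST shoots under water to 1.19 FPKM in ST roots under water. For sh1 the only overlap was between SS roots under salinity and ST roots under water, and for sus1 the overlaps were among SS roots under water, SS roots under salinity and ST roots under water.

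The features whose pattern was most like that of 4 of these genes were sought among 17734 features with a mean of at least 5 FPKM. The measure was Pearson's r of log2(FPKM + 1) over the 24 libraries, which share their tissue and cultivar differences, so that high values mostly follow those. The closest to sus1 was Zm00001d051478 (r = 0.995), at 466 FPKM in SS roots and 4.5 FPKM in SS shoots under water. The closest to sh1 was Zm00001d037483 (r = 0.994), and the closest to sweet13a was Zm00001d039517 (r = 0.985). The closest to sut1 was Novel01827 (r = 0.986), a feature without a gene identifier of the usual form, at 52.8 FPKM in SS shoots under water and 33.9 FPKM under salinity. None of the closest features was another of the 6 genes. Only the closest feature was taken for each gene, so this does not tell whether the 6 genes varied alike.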

How the data were processed

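RNA was measured in 24 libraries, 3 for each of 8 groups of cultivar, tissue and treatment. The authors deposited FPKM values, 1 table per library. Per the submitters' processing notes the tools were TopHat2, Cufflinks and Cuffdiff (versions and roles not stated) and the build was B73 RefGen_v3; the identifiers belong to a later gene set, so no coordinates are given. Each value was converted to whole reads by finding the library totals and feature lengths that give whole numbers within 0.002 reads, which succeeded for 100% of the 40811 features above 0; the method was tested on simulated data. Reads in this sense state depth and served the voom alternative and the comparison of replicate pairs, not the main tests. Intervals cover the spread between libraries. The libraries were paired-end, and the labels do not say if both mates were counted.

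Features with FPKM of at least 1 in at least 3 libraries of a fit entered limma 3.58.1 (R 4.3.3) (moderated variances with a trend) on log2(FPKM + 1). Contrasts within a tissue came from its 12 libraries and contrasts between tissues from all 24, without a replicate block. Root and shoot libraries were thus taken as independent. Calls used an adjusted p of 0.05, Benjamini-Hochberg over all features. The 6 genes, lists and tests were chosen with earlier results of these data known. All 6 genes are named, with the most similar feature for 4 of them. Lists of 28 pathway symbols and 11 tissue markers matched 0 deposited features in the reference gene table (Zm-B73-REFERENCE-NAM-5.0) and were not analysed. Ratios within a library used exact permutation tests. Replicate pairs differed by 1.92 to 8.32 in chi-square per degree of freedom, so none was counted as a duplicate. Alternatives were another pseudocount, 2 filters, 2 scalings, the compared groups alone, a replicate block, voom and leaving out each library. Plots used Python 3.11.15 and matplotlib 3.10.9.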

Additional observations from a re-analysis of the deposited data

Results flagged for a closer look

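The salinity responses listed here are those that an interaction test in limma called different between the cultivars or the tissues. Values are log2 differences of the responses, with Benjamini-Hochberg adjustment over all features. In roots 41.7% of all features differed between the cultivars and in shoots 51.3%, so a call here is common.

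In roots the response of ST minus that of SS was 1.73 for sweet13a, 1.14 for sweet13b, 0.93 for sweet13c, 0.28 for sus1, -0.44 for sut1 and -0.16 for sh1. The value of sus1 lost its call with quantile normalization (0.01, limma adjusted p = 0.922), and that of sh1 lost it in 6 of 12 refits without 1 library (limma adjusted p up to 0.0657). For sweet13a the signs of the 2 responses were opposite, and for sweet13b the SS fall was the larger. In shoots it was 1.10 for sut1, 0.36 for sweet13a, 0.18 for sweet13b, -0.57 for sweet13c and -0.56 for sh1. The signs were opposite for sut1 and for sweet13c, and the value of sweet13b (limma adjusted p = 0.0489) lost its call in 10 of 12 such refits.

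Between the tissues, 41.2% of all features differed in SS and 43.4% in ST. The response in shoots minus that in roots was 1.34 for sweet13a, 1.15 for sweet13b, 0.35 for sh1, -0.35 for sut1 and -0.85 for sus1 in SS. In ST it was 1.20 for sut1, -1.61 for sweet13c and -1.23 for sus1. Both cultivars thus had a lower response of sus1 in shoots than in roots, whereas the difference for sut1 had opposite signs. In SS quantile normalization reduced the value of sh1 to 0.16 and that of sut1 to -0.20, with the calls kept (limma adjusted p = 0.0217 and 0.0125).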

How the results depend on the processing

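Of the 96 results for single genes, 82 kept direction and side of the threshold under every alternative run, and 79 of the 86 called ones did. The exceptions among called values stand in the report. The replicate block ended the call of sweet13b in the cultivar difference of the shoot response (0.18, adjusted p = 0.0625) and no other of the 96. Deviations of same-numbered libraries correlated at -0.072 to 0.023 in roots and -0.102 to 0.066 in shoots within a cultivar (6 pairs each), and at -0.048 to 0.131 and -0.02 to 0.061 between cultivars (12 pairs each, of which 2 in roots and 0 in shoots were above 0.1). Since not every pair was above 0.1, the libraries of a tissue were taken to share only a number. Root and shoot libraries of the same number were not compared, and the block used the number alone. Pairing between the tissues was therefore not tested, and comparisons between tissues took the libraries as independent. Over all features the block moved the share called most for salinity in SS shoots, from 56.6% to 55.5%, and for the cultivar difference in shoots, from 51.3% to 50.2%.

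Median-of-ratios scaling reversed the sign of sut1 between the cultivars in shoots under salinity (0.0045), and of the uncalled sweet13a in SS shoots under salinity (-0.0761), sus1 in the shoot cultivar difference (0.0188) and sweet13a in the ST tissue difference (0.0191). Quantile normalization reversed sus1 in SS roots (0.2439), between cultivars in roots under water (0.1474) and in the shoot cultivar difference (0.0089). The cause was not tested. Median-of-ratios scaling also moved the share of higher among all called features from 59.3% to 47.3% for salinity in SS shoots, from 36.2% to 50.2% between cultivars in shoots under salinity, from 38.9% to 52.5% for the cultivar difference in shoots, from 59.4% to 45.1% for the tissue difference in SS, and from 25.3% and 30.3% to 48.4% and 48.1% between tissues under water in ST and SS. Leaving out 1 library moved uncalled values across 0: sut1 (-0.0256 to 0.0095) and sus1 (-0.0266 to 0.0034) in SS roots, sweet13a in SS shoots (-0.0044 to 0.036), sweet13c in the SS tissue difference (-0.1963 to 0.0165) and sweet13a in the ST tissue difference (-0.102 to 0.0627). A pseudocount of 0.1 moved the salinity effect on the sweet13a to sweet13c ratio in ST roots from -0.81 to -1.30. Depth limits sweet13c in ST roots under water, on 28 to 50 reads.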
